A study of Mus musculus with 4 samples.

Results

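The 7 genes described here mark the formative and primed epiblast, the states that pluripotent cells enter when they leave the naive ground state: Fgf5, Otx2, Pou3f1, Zic2, Zic5, Sall2 and Grhl2. They were chosen by name, as every probe on the array whose gene name was that of a member. The 7 genes had 8 probes among 55681, since Grhl2 had 2 probes and the other 6 members had 1 each, and they are 7 of 36282 gene names on the array. All samples were embryonic stem (ES) cells from the mouse line E14Tg2A, strain 129/Ola, or aggregates made from them. The ES array held untreated cells at day 0, grown on gelatin with serum and leukaemia inhibitory factor. The ELA array held untreated epiblast-like aggregates, which float for 2 days in a chemically defined minimal medium without that factor. The AZA array held ELA treated with 50 nM 5-azacytidine, an inhibitor of DNA methyltransferases, and the CHQ array held ELA treated with 100 µM 5-carboxy-8-hydroxyquinoline, an inhibitor of histone lysine demethylases. Each group was 1 array with a pool of RNA from 3 experiments, so there is no replicate array, no p-value and no measure of biological spread. The only error available is that of repeated spots of a probe within an array, which covers spotting and reading alone.

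In the embryo, the naive epiblast of the blastocyst gives way after implantation to a formative and then a primed epiblast, which forms an epithelium and becomes able to answer signals for the germ layers. Otx2, a homeodomain factor, and Pou3f1, a POU domain factor also called Oct6, act early in this change, and Fgf5, a secreted fibroblast growth factor, is the classical marker of the epiblast after implantation. Zic2 and Zic5 are zinc finger factors, Sall2 is a zinc finger factor of the spalt family, and Grhl2 is a grainyhead factor that opens enhancers of epithelial genes. All of them except Fgf5 encode transcription factors, and several are used again in the neural plate or in epithelia.

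Levels are log2 intensities after background correction and quantile normalisation of the 4 arrays, and they are compared only within a probe. The ES and ELA arrays lay on 1 slide and the AZA and CHQ arrays on another. Therefore ELA against ES and CHQ against AZA are comparisons within a slide, whereas in every other comparison treatment and slide cannot be told apart. Of the gene spots, the share marked as well above background was 55.1% to 60.6% on the first slide and 69.1% to 69.2% on the second, and the median local background was 59 to 77 and 13 to 14 intensity units. Among genes with 2 probes, the 2 probes differed in the ELA minus ES difference by a median of 0.16 (log2; 3409 genes) and in the AZA minus ELA difference by a median of 0.40 (3369 genes). All 6 markers of ES cells and epiblast were well above background on each array. A gene is called higher or lower below when the log2 difference is at least 1, the mean level is at least 7.5 and the probe is well above background on at least 1 of the arrays. Without replicates this rule of size is a description of these arrays and not a test.

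The probes that carry these values are shown by their last 30 of 60 bases, 5′ to 3′ in the sense of the transcript as the files give them, with any poly(A) signal (AATAAA or ATTAAA) in capitals. They are given for the members that passed the rule of size in some comparison, and for both probes of Grhl2, which disagreed.
Fgf5 (mm9 chr5:98705980-98706039, + strand): ttatattcctaaatgctgcAATAAAgaggc
Zic2 (mm9 chr14:122879296-122879355, + strand): tgtaaatatccgttgccatatttatccatt
Sall2 (mm9 chr14:52930994-52931053, - strand): tcctgtggaacaggtgttctgagaagactg
Pou3f1 (mm9 chr4:124337692-124337751, + strand): gtttgttaaggtttcagcttaaattttgtt
Grhl2, brighter probe (mm9 chr15:37293139-37293198, + strand): gtgtgtacaatctgttcccacATTAAAaaa
Grhl2, dimmer probe (mm9 chr15:37239426-37239485, + strand): ttgaagagatcgcatacaatgctgtttcct

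Coordinates are those of the whole probe in the deposited files. A poly(A) signal stood in the last 30 bases of 2 member probes, for Fgf5 and for the brighter Grhl2 probe, and in 5978 of all 55681 probes. The 2 Grhl2 probes started 53713 bases apart on the chromosome. The probes of Otx2 (mm9 chr14:49277855-49277914, - strand) and Zic5 (mm9 chr14:122858394-122858453, - strand) are on chromosome 14 as well, so 4 of the 7 members lie there. Zic2 and Zic5 are neighbours on opposite strands, and their probes lay 20843 bases apart.

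Fgf5, Zic2 and Sall2 were higher in ELA than in ES past the rule of size, and no member was lower. All 3 stood below the untreated ELA level with either inhibitor, further below it with AZA than with CHQ. Pou3f1 differed less between ES and ELA but was the member with the widest gap between the 2 inhibitors. Otx2 was bright on every array and was called in no comparison. Grhl2 depended on the probe read, and Zic5 had no usable spot on the ELA array.

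**Figure D1:**
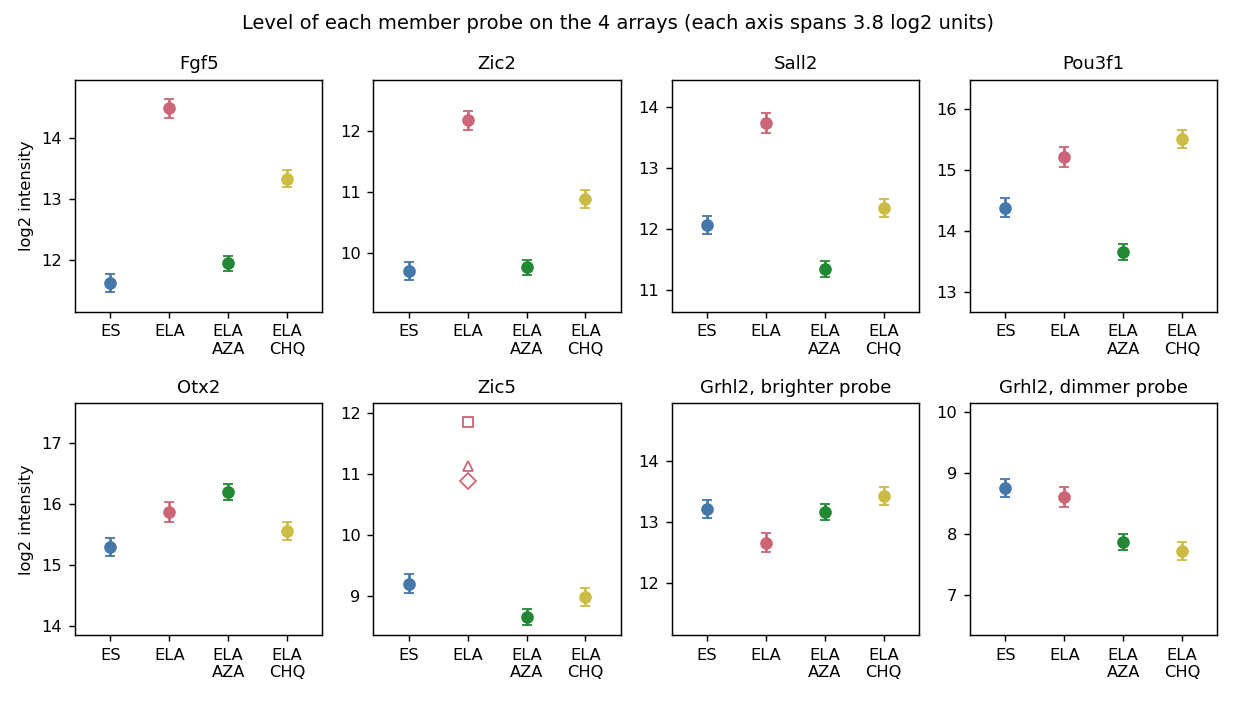
Each panel plots the log2 intensity of a member probe on the ES, ELA, AZA and CHQ arrays, 1 array per group, with bars for the SD of repeated spots on that array (0.13 to 0.16). Every vertical axis spans the same 3.8 log2 units, so heights can be compared between panels as differences but not as levels. Open symbols for Zic5 in ELA are the flagged spot read by the mean of its pixels (square, 11.85), by their median (triangle, 11.13) and in the deposited table (diamond, 10.88).

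Fgf5, the secreted growth factor of the epiblast, measured 11.62 in ES and 14.48 in ELA (log2 level), against 11.94 with AZA and 13.33 with CHQ. ELA was thus the highest array, CHQ lay between and AZA was near ES, from which it differed by 0.32, less than 2 SDs of repeated spots (SD of the difference 0.20; the difference was -0.35 with scaling to spike-in probes). Fgf5 was 7.3-fold higher in ELA than in ES, a log2 difference of 2.87 ± 0.22 (SD from repeated spots), which ranked 17 from the top of 18985 genes. With AZA it was 5.83-fold lower than in untreated ELA (-2.54) and with CHQ 2.22-fold lower (-1.15). On the slide shared by the inhibitors it was 2.63-fold higher with CHQ than with AZA (1.39 ± 0.20). Before any normalisation between arrays, the deposited mean intensity of the spot was 3404 units in ES and 22178 in ELA, against 3865 with AZA and 9695 with CHQ. The order of the 4 arrays was thus already that of the normalised levels.

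Zic2, a zinc finger factor of the formative epiblast and neural plate, measured 9.70 in ES and 12.17 in ELA, against 9.76 with AZA and 10.88 with CHQ. The order of the arrays was the same as for Fgf5, with ES and AZA within 2 SDs of repeated spots (0.06). With scaling to spike-in probes that difference was -0.56, beyond 2 SDs and with AZA below ES. Zic2 was 5.51-fold higher in ELA than in ES (2.46), rank 51 of 18985 genes. It was 5.29-fold lower with AZA than in ELA (-2.40) and 2.43-fold lower with CHQ (-1.28), and CHQ exceeded AZA 2.17-fold (1.12). The deposited intensities of its spot were 873 in ES and 4143 in ELA, against 828 with AZA and 1918 with CHQ, from 13.6 to 128 times the local background.

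Sall2, the spalt family factor, measured 12.07 in ES and 13.74 in ELA, against 11.35 with AZA and 12.34 with CHQ. ELA was again the highest array, but AZA lay below ES here, by 0.72, which is more than 2 SDs of repeated spots, and CHQ was within 2 SDs of ES (0.27, which spike-in scaling turned to -0.58). Sall2 was 3.18-fold higher in ELA than in ES (1.67, rank 239). It was 5.23-fold lower with AZA than in ELA (-2.39) and 2.63-fold lower with CHQ (-1.40). The CHQ minus AZA difference was 0.99, just under the rule of size, and it passed 1 in 2 of 9 processing alternatives. The deposited intensities were 4720 in ES and 12582 in ELA, against 2561 with AZA and 5137 with CHQ, in the same order as the normalised levels.

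Pou3f1, the POU domain factor, measured 14.38 in ES and 15.21 in ELA, against 13.65 with AZA and 15.50 with CHQ. AZA was the lowest array, and the 2 highest, ELA and CHQ, differed by 0.29, within 2 SDs of repeated spots, a difference that became -0.29 with scaling to spike-in probes and -0.14 with the 75th percentile of processed signals. The ELA minus ES difference was 0.83, a 1.78-fold difference that did not reach the rule of size, with rank 1221. Pou3f1 was 2.94-fold lower with AZA than in ELA (-1.56). On the second slide it was 3.61-fold higher with CHQ than with AZA (1.85), rank 212 of 19262 genes. Its CHQ minus ES difference of 1.12 was past the rule of size here, but it was 0.59 with the 75th percentile of processed signals and -0.13 when the arrays were scaled to spike-in probes, so its direction against ES depends on the scaling. The deposited intensities were 26090 in ES and 37540 in ELA, against 12150 with AZA and 39025 with CHQ, so the gap between the inhibitors was present before normalisation.

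Otx2, the homeodomain factor, was bright on every array and measured 15.29 in ES and 15.87 in ELA, against 16.20 with AZA and 15.55 with CHQ. No neighbours in this order differed by more than 2 SDs of repeated spots, and the whole range was 0.91, from ES to AZA. The ELA minus ES difference was 0.58, and it was -0.11 with scaling to spike-in probes, under which the median of all genes was -0.61. AZA differed from ELA by 0.33, which spike-in scaling turned to -0.07 and the 75th percentile to -0.05, and CHQ from AZA by -0.65. At the brightest probes, Otx2 was the only member with a lower value with CHQ than with AZA. No Otx2 spot was saturated, although its deposited mean intensities ran from 40283 units with CHQ to 65776 with AZA.

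Zic5, the zinc finger gene next to Zic2, had levels of 9.20 in ES, 8.65 with AZA and 8.98 with CHQ. The neighbours among these 3 were within 2 SDs of repeated spots, and AZA differed from ES by -0.56. On the ELA array the scanner software had flagged the spot as uneven, so it was left out. The mean of its pixels was 3342 units and the median 1989, with a pixel SD of 3048 over 39 pixels. Read in spite of the flag, ELA was the highest array in 3 readings, with an ELA minus ES difference of 2.65 from the mean of the pixels, 1.95 from their median and 2.13 in the deposited table. The AZA minus ELA difference was -3.21, -2.48 and -2.76 in the same readings, and the CHQ minus ELA difference -2.88, -2.21 and -2.44. These values rest on 1 uneven spot and are counted in no total below.

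Grhl2, the grainyhead factor, gave a different order at each probe. The brighter probe measured 13.21 in ES and 12.66 in ELA, against 13.16 with AZA and 13.42 with CHQ, so that ELA was its lowest array. The dimmer probe measured 8.76 in ES and 8.61 in ELA, against 7.87 with AZA and 7.73 with CHQ, so that both inhibitors lay below ELA. The ELA minus ES difference was -0.54 and -0.15 at the 2 probes, below 0 at both. The AZA minus ELA difference was 0.50 at the brighter and -0.74 at the dimmer probe, and the CHQ minus ELA difference 0.76 and -0.88. For AZA the gap between the probes was wider than the median of 0.40 but inside the 90th percentile of 1.28 over genes with 2 probes, and for CHQ it was beyond the 90th percentile of 1.29. No direction is therefore given for Grhl2 against ELA. The brighter probe ends at a poly(A) signal (printed above), the dimmer probe lies 53713 bases upstream, and whether the probes read different transcripts was not tested.

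**Figure D2:**
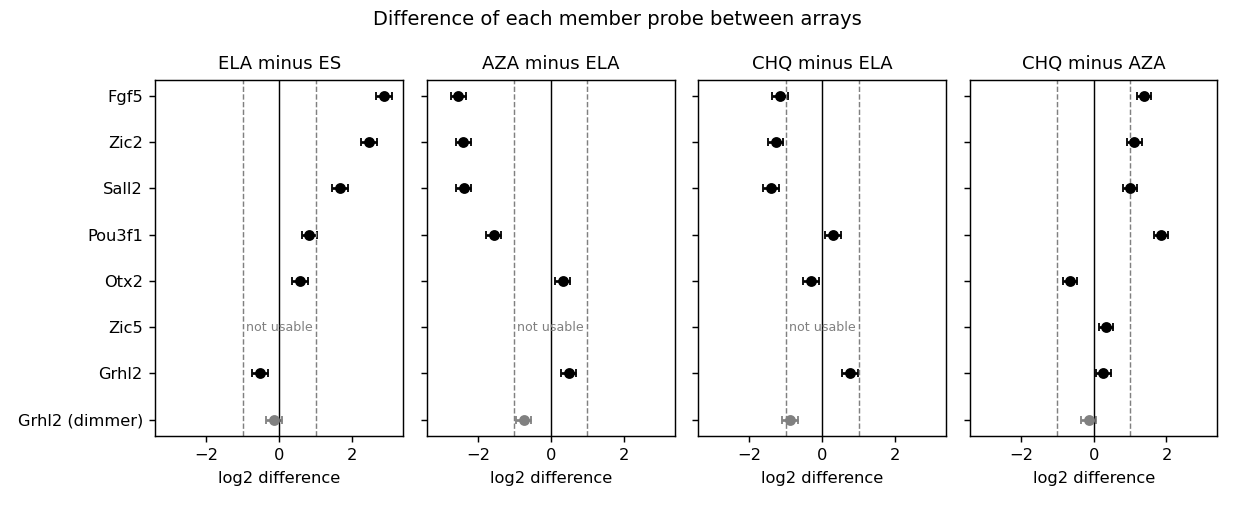
The horizontal axis of each panel is the log2 difference between the named arrays and each row is a member probe, with the dimmer Grhl2 probe in grey. Bars are the SD of the difference from repeated spots (0.20 to 0.22), dashed lines mark the rule of size at 1, and Zic5 has no usable ELA value. Fgf5, Zic2 and Sall2 lie beyond the dashed lines in the first 3 panels, whereas Otx2 stays inside them in all 4.

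Counted over the members, 3 of 6 measured were called higher in ELA than in ES and 0 lower. With scaling to spike-in probes the count was 3 higher and 1 lower, since the brighter Grhl2 probe then differed by -1.27. Among all 18985 genes tested 4.46% were called higher and 5.6% lower. The median difference of the members was 1.25 against -0.02 for all genes, and 5 of the 6 lay above 0. With AZA, 4 of 6 members were called lower than ELA (Fgf5, Zic2, Sall2 and Pou3f1) and 0 higher, where 11.4% of 19184 genes were called lower and 14.3% higher. The members' median was -1.97 and that of all genes -0.07. With CHQ, 3 of 6 were called lower than ELA (Fgf5, Zic2 and Sall2) and 0 higher, where 11.9% of 19198 genes were lower and 14.8% higher, with a members' median of -0.73 and a median of -0.09 over all genes. These 3 comparisons share the ELA array, so a gene that is high there is lower on every other array, and their counts are not independent.

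The 2 comparisons within a slide share no array. In CHQ against AZA, 3 of 7 members were called higher with CHQ (Fgf5, Pou3f1 and Zic2) and 0 lower, where 5.54% of 19262 genes were called higher and 4.82% lower. The members' median was 0.99 and that of all genes -0.02. The sign of CHQ minus AZA was that of ELA minus ES for 4 of the 6 members measured in both (66.7%), for 54.3% of 17744 genes, and for 58.2% of the 691 genes called higher in ELA. Otx2 and the brighter Grhl2 probe had opposite signs, and neither was called in either comparison. The dimmer Grhl2 probe had the same sign in both (-0.15 and -0.14).

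Set against ES cells, 0 of 7 members were called with AZA, where 11.2% of 19258 genes were called higher and 8.27% lower. At the brightest probes the differences from ES ran from -0.73 for Pou3f1 to 0.91 for Otx2, and the dimmer Grhl2 probe differed by -0.89. With CHQ, 3 of 7 members were called higher than ES, namely Fgf5 at 3.28-fold (1.72), Zic2 at 2.26-fold (1.18) and Pou3f1 at 2.18-fold (1.12), and 0 were lower, where 12.8% of 19251 genes were higher and 10.3% lower. These counts take the brightest probe of each gene, and the dimmer Grhl2 probe, at -1.03, was past the rule of size as lower. Both comparisons set 1 slide against the other, and with scaling to spike-in probes Pou3f1 (-1.65), Sall2 (-1.42) and Zic5 (-1.17) were lower than ES with AZA and Otx2 (-1.05) with CHQ. Under that scaling the CHQ minus ES differences of Fgf5, Zic2 and Pou3f1 were 0.80, 0.46 and -0.13, so none of the 3 was past the rule of size.

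**Figure D3:**
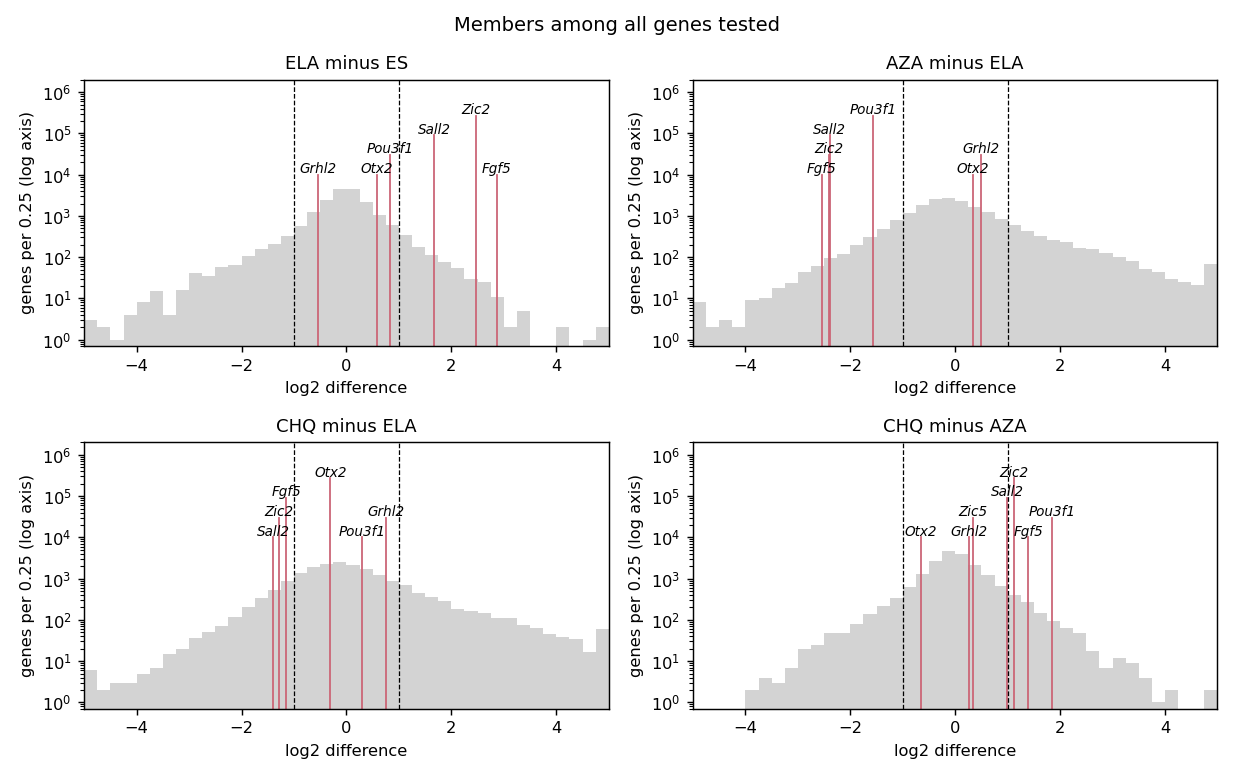
Grey bars count all genes tested by log2 difference in steps of 0.25 (log axis, end bars hold all values beyond them), and red lines mark the members, labelled above. Dashed lines are the rule of size. Fgf5 and Zic2 stand in the right tail of ELA minus ES at 2.87 and 2.46, and all genes spread more widely in AZA minus ELA and CHQ minus ELA, which set the slides against each other.

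Patterns were compared among 12968 genes well above background on all arrays, leaving out predicted genes, RIKEN clones, olfactory receptors and similar names. The one whose levels followed Fgf5 most closely was Chst1, a carbohydrate sulfotransferase, at a distance of 0.26 (Euclidean distance of log2 levels over the 4 arrays, each gene centred on its own mean). Its levels were 11.20, 13.94, 11.75 and 12.88 in ES, ELA, AZA and CHQ. The next was Zic2, at 0.40, while Sall2 came at place 63 with 1.10. The nearest to Zic2 were Lrrn1 at 0.27 and Slc22a23 at 0.29, and to Sall2 Septin4 at 0.18 and Sertad4 at 0.20. Pou3f1 was followed most closely by Kcnip3 at 0.08 and Zfhx3 at 0.15. For Otx2 the nearest were Spag4 at 0.06 and Gsx1 at 0.08, and for Grhl2 Ptcd3 at 0.05 and Cep162 at 0.06, but genes that vary little are close to many others. With 4 arrays these distances describe a ranking and carry no test.

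RefSeq (GRCm38.p6) gave promoter windows for 4 members, Fgf5, Otx2, Sall2 and Zic5, with 8 windows in all. The 250 bases before the start are shown for Fgf5 and Sall2, which passed the rule of size, with each CG, the dinucleotide that DNA methyltransferases act on, in capitals.
Fgf5 (GRCm38.p6 chr5:98253934-98254183, + strand): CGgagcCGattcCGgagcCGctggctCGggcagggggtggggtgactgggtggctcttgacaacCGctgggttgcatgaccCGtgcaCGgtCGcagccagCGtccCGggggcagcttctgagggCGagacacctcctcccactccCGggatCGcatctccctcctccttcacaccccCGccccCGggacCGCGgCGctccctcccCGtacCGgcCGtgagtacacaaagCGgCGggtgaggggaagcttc
Sall2, start 1 (GRCm38.p6 chr14:52328671-52328920, - strand): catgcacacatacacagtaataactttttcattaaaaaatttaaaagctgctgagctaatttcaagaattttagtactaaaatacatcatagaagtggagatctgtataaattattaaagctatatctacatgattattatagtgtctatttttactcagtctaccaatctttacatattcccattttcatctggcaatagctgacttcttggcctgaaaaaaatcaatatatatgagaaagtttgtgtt
Sall2, start 2 (GRCm38.p6 chr14:52316324-52316573, - strand): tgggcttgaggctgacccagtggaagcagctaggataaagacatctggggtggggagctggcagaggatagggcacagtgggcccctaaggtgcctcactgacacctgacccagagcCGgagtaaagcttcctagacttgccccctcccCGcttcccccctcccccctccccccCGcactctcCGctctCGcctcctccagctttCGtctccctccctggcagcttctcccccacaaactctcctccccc

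The Fgf5 window held 24 CG, a number that 12% of 32851 windows reached, against a median of 6 over all windows. The Sall2 windows held 0 and 6, the Zic5 window 11, and the 4 Otx2 windows, of which the first pair overlap, 6, 8, 14 and 9. The TATA box letters TATAAA, on either strand, stood in the first Otx2 and the first Sall2 window (12.4% of all windows), and TAATCC, the letters bound by Otx2-type homeodomains, in the third Otx2 window (6.25%). The octamer ATGCAAAT (1.6% of all windows) and the grainyhead letters AACCGGTT (0.116%) stood in 0 of the 8. DNA methylation was not measured on these arrays, and a match is a description of letters only.

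The relatives of the members did not all follow them. Of 16 relatives (other Fgf, Otx, Pou3f, Zic, Sall and Grhl genes), 9 could be tested in ELA against ES, of which 1 was called higher and 3 lower, with a median of -0.62. Zic1, a relative of Zic2, had levels of 9.74, 11.34, 9.68 and 10.06 in ES, ELA, AZA and CHQ and was highest in ELA (1.60), but a second Zic1 probe gave a CHQ minus ELA difference of 1.75 where the brightest gave -1.28. Grhl3 measured 11.29 in ES and 8.80 in ELA, against 12.72 with AZA and 12.77 with CHQ, a difference of -2.49 from ES to ELA. Fgf4, the growth factor made by naive cells, was lower in ELA than in ES (-1.27) where Fgf5 was higher. Sall4, the spalt factor of pluripotent cells, differed by 0.34 between ELA and ES and was lower than ELA with AZA (-1.17) and with CHQ (-1.75). With AZA 3 of 10 relatives were higher than ELA and 2 lower, with CHQ 3 of 9 higher and 2 lower, and between CHQ and AZA 0 of 10 were called.

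Of 29 other genes of the formative and primed epiblast, 26 were tested in ELA against ES, of which 9 were called higher and 2 lower, with a median of 0.55, which became -0.07 with scaling to spike-in probes. Sox3 (2.74), a neural and epiblast factor, was higher, as Fgf5 and Zic2 were, whereas Nodal (-3.72), the signal of the epiblast and streak, and the formative factor Tcf15 (-2.52) were lower. With AZA 4 of 26 were higher than ELA and 11 lower (median -0.65), and with CHQ 5 were higher and 12 lower (median -0.83), with Nodal again opposite to Fgf5 (4.86 and 4.59). Between the inhibitors 4 of 25 were higher with CHQ and 0 lower, namely the N-cadherin gene Cdh2 (3.43), the Wnt effector Lef1 (2.00), the RNA-binding protein gene Lin28b (1.60, against 0.49 at its other probe) and Sox3 (1.32).

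Fgf5 signals through FGF receptors and ERK, and 16 genes of the receptors and of ERK feedback were read beside it. In ELA against ES 4 were called higher and 2 lower (median 0.00, and -0.57 with scaling to spike-in probes). The higher included the immediate early gene Fos (2.08) and the receptor Fgfr1 at its brightest probe (1.18, against 0.18 and 0.95 at its other probes), and the lower included Myc (-1.54). With AZA 2 were higher than ELA and 3 lower (median -0.24), with CHQ 5 were higher and 1 lower (median 0.40), and CHQ exceeded AZA for 3, Fos (1.66), Spred1 (1.48) and the ERK phosphatase gene Dusp6 (1.00), with 0 lower.

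Of 18 epithelial genes that Grhl2 is linked with, 2 were higher and 1 lower in ELA than in ES, with a median of 0.32 that became -0.34 with scaling to spike-in probes. With AZA 1 of 17 was higher than ELA and 7 lower (median -0.78), and with CHQ 1 of 18 was higher and 6 lower (median -0.74), among them the serine protease gene Prss8 (-2.98 and -3.08) and the claudin Cldn7 (-2.25 and -2.43). The dimmer Grhl2 probe was likewise below ELA and the brighter probe above it. Between the inhibitors 0 of 16 were higher and 1 lower with CHQ.

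**Figure D4:**
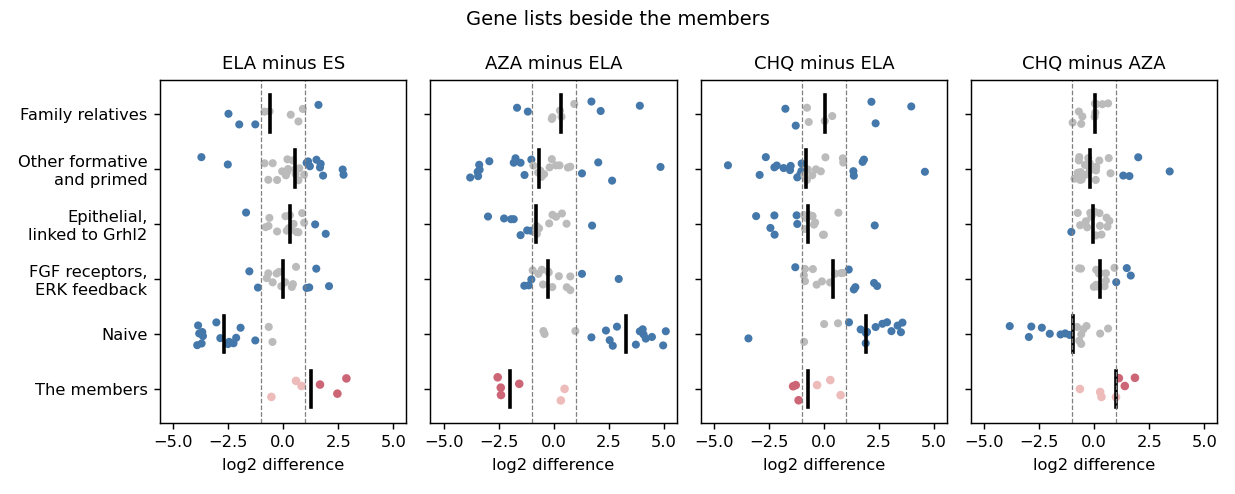
Each dot is the log2 difference of a gene of the named list in the comparison above the panel, in colour where it passed the rule of size, and the black bar is the list's median. In the last row the members are in red, with medians of 1.25, -1.97, -0.73 and 0.99. The median of the naive genes lies on the opposite side of 0 from that of the members in all 4 panels.

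The median of the naive genes had the opposite sign to the differences of Fgf5, Zic2 and Sall2 in each of these 4 comparisons, under every scaling tried. Of 16, including the general pluripotency genes Pou5f1 and Sox2, 0 were higher and 14 lower in ELA than in ES (median -2.69). With AZA 13 were higher than ELA and 0 lower (median 3.31), and with CHQ 12 were higher and 1, Dppa3 (-3.43), was lower (median 1.93). On the inhibitors' own slide 0 were higher with CHQ than with AZA and 8 lower (median -0.95), led by Tcl1 (-3.84).

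Markers of other cell types that the cultures could hold also differed between the arrays, and their part in the members' values was not tested. Fewer cells of a type and less RNA per cell cannot be told apart in these bulk samples. Of 8 early neural markers, 8, 6, 8 and 7 were well above background in ES, ELA, AZA and CHQ, and the log2 of their summed level was 12.98, 13.92, 12.30 and 12.57, highest in ELA. That sum is mostly the signal of Nes (12.68, 13.53, 11.85 and 12.28), and the other markers did not share 1 order. Hes5 (10.90, against 8.74 in ES), Zbtb16 (9.51, against 7.33) and Pax3 (7.86, against 6.96) were highest in ELA. Sox1 ran only from 7.78 to 8.18 at its brightest probe, and Pax6 was 8.04 in ES and 7.91 in ELA. The other Sox1 probe differed from ES by -0.25 in ELA, -1.08 with AZA and -1.17 with CHQ. Among early neural markers tested, 2 of 5 were called higher in ELA than in ES and 0 lower. With AZA 3 of 5 were called lower than ELA and with CHQ 3 of 4, with 0 higher. The median level of the list was 7.73, 8.04, 7.03 and 7.28. Of 8 trophoblast markers, 7, 4, 6 and 7 were well above background, with summed levels of 13.28, 11.62, 13.23 and 13.95, lowest in ELA. Outside ELA that sum is mostly the signal of Tfap2c (12.65, 9.79, 11.91 and 13.24) and Plet1 (10.53, 8.57, 11.89 and 11.94). Eomes was highest in ELA at its brightest probe (10.14, against 9.25 to 9.58), but its other probe gave 0.02 in AZA minus ELA. The median level of the trophoblast list was 8.68, 7.62, 8.50 and 8.56. Of 9 markers of primitive endoderm, 6, 5, 9 and 8 were well above background, with summed levels from 12.83 to 13.09, mostly the signal of Lama1 (11.83 to 12.75), while the median level was 7.18, 7.46, 7.70 and 7.85. At their brightest probes Gata6 and Sox17 were not well above background in ES or ELA (6.38 to 6.77), measured 8.06 and 7.76 with AZA and 9.89 and 9.51 with CHQ, and were called higher with CHQ than on each other array. A second Sox17 probe gave smaller differences, of 1.52 from ES, 1.37 from ELA and 1.16 from AZA. Dab2 and Foxa2 went the other way at their brightest probes, lower than ELA with AZA (-1.47 and -1.81) and with CHQ (-1.34 and -1.01). The other Foxa2 probe gave -0.70 and -0.38. With CHQ 2 of the 7 endoderm markers tested were called higher than ELA and 2 lower, and with AZA 0 of 5 were higher and 2 lower. Of 6 mesoderm and streak markers, 4, 4, 5 and 6 were well above background, with summed levels from 9.64 to 10.53. The 5 reference transcripts had summed levels from 20.20 to 20.38, and none of them was called in any comparison.

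**Figure D5:**
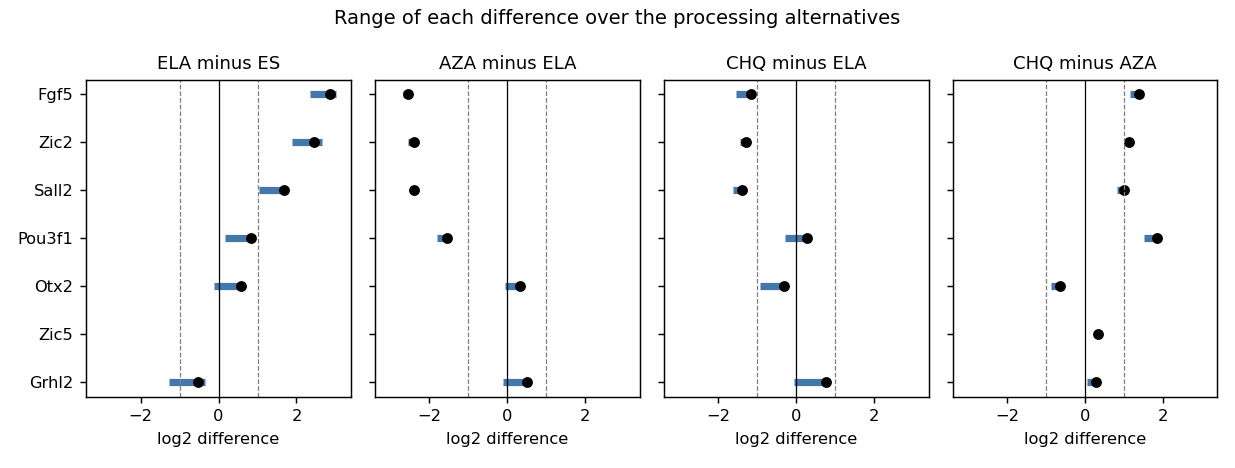
Black dots are the reported log2 differences of each member and blue bars span the values under the processing alternatives, with dashed lines at the rule of size. Fgf5, Zic2 and Sall2 stay beyond 1 in ELA minus ES (lowest 2.34, 1.89 and 1.05), while the bars of Otx2 cross 0 in ELA minus ES and AZA minus ELA, that of Pou3f1 in CHQ minus ELA and those of Grhl2 in both comparisons with ELA as the second array.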

How the data were processed

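Cy3-labelled cRNA of the 4 pools was hybridised to single-colour Agilent arrays, and per the file headers the authors read the images with Feature Extraction 10.7.3.1 (version 9.1 in the submitters' processing notes). The deposited scanner files hold the mean and median intensity of each spot, the local background median and flags, not normalised between arrays. The deposited table gives log2 values, for which the authors used limma to correct background and apply quantile normalisation. That table correlated with normexp values without an offset at r = 0.999853 to 0.999873 from the median of the spot pixels and at 0.998138 to 0.999481 from their mean.

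Main values were computed from the mean intensity with normexp on the local background median (offset 50) and quantile normalisation of the 4 arrays, in limma 3.58.1 (R 4.3.3). Of 59305 gene spots per array, 188 to 523 had an outlier flag and were left out, and 0 were saturated. Probes were 60 bases long, and 26582 of 55681 were named through RefSeq (GRCm38.p6, names only). For a gene with several probes the brightest was used. The SD of repeated spots, pooled over 298 to 348 probes, was 0.13 to 0.16 per array. With 1 array per group no p-value was computed, and precision is limited by how few arrays there are. The rule of size follows the study's thresholds without its p-value.

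Named genes were the members with all their probes, at most 4 called genes of each list per comparison with the largest difference, and the 2 nearest patterns of each member. Some cell type markers were named beside them. A gene that the rule also names is not reported here. The members, lists and rules were chosen with earlier results of these data known. Other probes of the named genes differed in sign, or by at least 2, for values of Grhl2, Zic1, Sox1 and Eomes, as stated there. Alternatives were other background corrections, scalings, filters and probe summaries. An array with a knockdown was not analysed here.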

Additional observations from a re-analysis of the deposited data

How the results depend on the processing

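The log2 differences of the members were recomputed under 8 to 9 alternatives each. Fgf5, Zic2 and Sall2 kept their direction and stayed past 1 in ELA minus ES, AZA minus ELA and CHQ minus ELA under each of them. Otx2 and Pou3f1 crossed 0 under spike-in scaling (Otx2 -0.11 in ELA minus ES, Pou3f1 -0.29 in CHQ minus ELA), as did both with the 75th percentile of processed signals (Otx2 -0.05 in AZA minus ELA, Pou3f1 -0.14 in CHQ minus ELA), and Grhl2 did so with the mean over its probes (-0.12 in AZA minus ELA, -0.06 in CHQ minus ELA). Against ES, spike-in scaling also turned Fgf5 (-0.35), Zic2 (-0.56) and Otx2 (-0.17) with AZA and Sall2 (-0.58), Otx2 (-1.05) and Grhl2 (-0.81) with CHQ. In CHQ minus ES the 75th percentile likewise turned Otx2 (-0.30) and Grhl2 (-0.09), and the mean over probes Grhl2 (-0.41). Pou3f1 in CHQ minus ES was -0.13 under spike-in scaling against 1.12. Scaling to 7 spike-in probes moved the median of all genes to -0.61 in ELA minus ES, -0.27 in AZA minus ELA, -0.40 in CHQ minus ELA, -0.17 in CHQ minus AZA, -0.85 in AZA minus ES and -1 in CHQ minus ES, so directions are relative to the bulk of transcripts. Members called in AZA minus ES were 1 lower (Pou3f1) with the 75th percentile of processed signals and 3 lower (Pou3f1, Sall2 and Zic5) under spike-in scaling, against 0. In CHQ minus ES spike-in scaling gave 0 higher and 1 lower (Otx2) against 3 higher (Fgf5, Zic2 and Pou3f1), while the 75th percentile gave 2 higher, without Pou3f1 (0.59). In ELA minus ES spike-in scaling added Grhl2 as lower (-1.27). Under spike-in scaling 4258 genes were called in ELA minus ES against 1910, 9123 in AZA minus ES against 3759 and 10715 in CHQ minus ES against 4442. The share of calls that were higher became 7.33% (44.3%), 9.95% (57.6%) and 8.93% (55.3%) there, and 45.5% (55.7%) in AZA minus ELA, 33.4% (55.5%) in CHQ minus ELA and 42% (53.5%) in CHQ minus AZA. With the 75th percentile it was 48.7%, 42%, 45.7% and 37.7% in AZA minus ELA, CHQ minus ELA, AZA minus ES and CHQ minus ES. Of the medians of the gene lists 468 shifted by no more than the SD of a single probe's difference, taken from repeated spots, and 82 shifted by more. The median of spot pixels and keeping flagged spots were chosen after seeing the data, and the latter, like the deposited table, adds Zic5 to the members called in the 3 comparisons with ELA. No paired analysis was possible because each group has 1 array. Leaving out a replicate was not possible for the same reason. With 1 pool per group, dim probes such as those of Zic5 and the dimmer Grhl2 probe, and all comparisons across slides, are the least certain values.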
